A study of Mus musculus with 8 samples.

Results

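Sodium-potassium pump genes were followed in primary mouse oligodendrocyte progenitors after deletion of the histone methyltransferase genes Ehmt1 and Ehmt2. The members were 6 genes chosen by symbol, and all 6 were found among the 24155 genes of the table. They comprise the 3 beta subunit genes Atp1b1, Atp1b2 and Atp1b3 and the 3 FXYD genes Fxyd1, Fxyd6 and Fxyd7. Of these, 5 passed the filter on low counts and were tested, and Fxyd1 did not. The RNA-seq compared cells from postnatal day 7 pups of both sexes with floxed alleles of both genes (Ehmt1fl/fl;Ehmt2fl/fl), immunopanned and grown with bFGF at 20 ng/mL plus PDGF-AA at 10 ng/mL. Control cultures (n = 4) received Ad-RFP, an adenovirus for a red fluorescent protein, and cKO cultures (n = 4) received Ad-RFP-iCre, which adds Cre recombinase. Both groups therefore share the floxed alleles, the growth factors and an exposure to virus of 6 hours (multiplicity of infection 10), and both were collected 72 hours later, counted from infection. No source used here gives the promoter of Cre or the number of pups behind each culture. Replicates 1, 3, 4 and 6 each name a batch with 1 control and 1 cKO library, so libraries were compared within these 4 pairs.

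The sodium-potassium pump moves sodium out of the cell and potassium in, at the cost of ATP, and sets the ion gradients on which membrane potential and sodium-driven transport depend. A catalytic alpha subunit needs a glycosylated beta subunit to fold, reach the membrane and bind potassium, and the choice of beta isoform alters the pump's ion affinities. FXYD proteins are small single-pass membrane proteins that join the complex and adjust its affinity and rate in a tissue-specific way. Atp1b1 encodes the widespread beta1 subunit, Atp1b2 the beta2 subunit, first described as the adhesion molecule on glia, and Atp1b3 the beta3 subunit. Fxyd1 encodes phospholemman, known from heart and muscle, while Fxyd6 (phosphohippolin) and Fxyd7 are known from brain.

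The FXYD genes are recognised by a short signature, and the coding stretches that carry it are shown to identify the family. They were read from GENCODE M21 transcripts (GRCm38, the build also called mm10), are coding exon sequence of 60 bases each, and run 5′ to 3′ on the gene's strand. Capitals mark the 12 bases of the FXYD signature, found in frame as a codon for F, any codon, and codons for Y and D. Each stretch crosses an intron, which the genomic span includes.
Fxyd1, chr7:31053449-31054306, minus strand: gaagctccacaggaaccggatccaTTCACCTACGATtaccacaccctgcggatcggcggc
Fxyd6, chr9:45390639-45390802, plus strand: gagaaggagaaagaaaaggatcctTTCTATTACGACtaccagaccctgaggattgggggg
Fxyd7, chr7:31045002-31051359, minus strand: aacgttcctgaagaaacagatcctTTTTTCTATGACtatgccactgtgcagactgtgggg
The signature begins at codon 29 in Fxyd1 (found in 10 of its 12 coding transcripts) and in Fxyd6 and at codon 18 in Fxyd7. Only coding sequences that begin with ATG were searched, so its absence from the other Fxyd1 transcripts is not shown. The codon after F, the variable position, differs between the 3 genes.

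Among the beta genes, the 250 bases before the start of Atp1b1 and of Atp1b3 are shown because the former rose and the latter did not pass the test, as described below. No window was matched to Atp1b2, the member that fell, so it is missing from this comparison. Sequences are RefSeq's on GRCm38.p6, on the gene's strand, with each CG dinucleotide in capitals.
Atp1b1, chr1:164458356-164458605, minus strand: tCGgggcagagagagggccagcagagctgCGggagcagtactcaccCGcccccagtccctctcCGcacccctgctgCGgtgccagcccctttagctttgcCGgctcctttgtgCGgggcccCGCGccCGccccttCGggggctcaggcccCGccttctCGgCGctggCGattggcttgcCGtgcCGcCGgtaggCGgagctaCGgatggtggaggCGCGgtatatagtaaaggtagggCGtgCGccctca
Atp1b3, chr9:96364432-96364681, minus strand: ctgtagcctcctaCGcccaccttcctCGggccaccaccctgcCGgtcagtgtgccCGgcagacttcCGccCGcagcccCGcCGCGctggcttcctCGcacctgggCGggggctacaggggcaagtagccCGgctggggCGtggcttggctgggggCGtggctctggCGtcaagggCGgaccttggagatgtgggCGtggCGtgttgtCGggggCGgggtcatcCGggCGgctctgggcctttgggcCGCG
Both windows hold 24 CG dinucleotides, a motif that reads the same on both strands, and 12% of all 32851 promoter windows of this length hold at least as many. The window of Fxyd1 holds 3 and that of Fxyd6 holds 5, against a median of 6. Atp1b3 has another RefSeq start, whose window (chr9:96363716-96363965) holds 35, a count that 2.97% of windows reach. These counts describe the windows and give no account of the difference between the genes.

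Library totals ran from 43542742 to 65374488 estimated counts, so counting error is small for every member except Fxyd1 and Fxyd7. As a check of the labels, the targeted genes fell in 4 of 4 pairs, Ehmt1 to 43.4% and Ehmt2 to 32.9% of control in edgeR's quasi-likelihood test with replicate as a block (adjusted p = 7.4e-08 and 2.2e-09). Counts cover whole genes, exons outside the floxed segments included. "Rose" and "fell" below mean a Benjamini-Hochberg adjusted p under 0.05 over all 18102 genes tested in that fit, which called 20.5% of genes, 10.0% as higher and 10.4% as lower. Levels are CPM, each count scaled to a common library size with TMM factors. Of the 5 members tested, 1 rose, 1 fell and 3 did neither, and their median log2 fold change was -0.01, as was that of all genes. A share of 2 in 5 against 20.5% of all genes rests on few genes, and nothing particular to the pump is read from it. In bulk RNA, fewer cells that express a gene and less RNA per cell cannot be told apart.

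The beta subunit genes moved apart in cKO cells. Atp1b1 rose to 1.4 times control, Atp1b2 fell to 70.7% of control, and Atp1b3 did not pass. In the pairs of replicates 1, 3, 4 and 6, Atp1b1 was at 50.1, 19.5, 30.5 and 19.2 CPM in control and at 67.2, 30.2, 36.3 and 30.5 CPM in cKO libraries. The groups overlap because batches differ, with replicate 1 highest in both, yet the cKO library was the higher in each pair. The log2 differences within pairs were 0.42, 0.63, 0.25 and 0.66, and the fitted log2 fold change was 0.49 ± 0.07 (SE, 4 pairs; 95% interval 0.33 to 0.64; edgeR adjusted p = 0.00174). Atp1b1 (chromosome 1, 164437109 to 164458355, mm10, minus strand, protein-coding) overlaps Nme7, on the opposite strand, over 617 bases. No source used here says if strand was used in counting, so reads in that overlap cannot be told apart. Nme7 itself, at 11.8 ± 1.88 CPM in control against 12.3 ± 2.79 CPM after deletion (SD, n = 4), did not pass (log2 fold change 0.04, edgeR adjusted p = 0.723).

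Atp1b2 fell by a similar factor and more evenly. It was at 251, 116, 225 and 385 CPM in the control libraries of replicates 1, 3, 4 and 6 and at 171, 88.8, 152.5 and 274 CPM in their cKO partners. Replicate 6 was the highest and replicate 3 the lowest in both groups, which overlap, and each cKO library lay below its partner. The log2 differences were -0.55, -0.39, -0.56 and -0.49, and the fit gave -0.50 ± 0.03 (SE, 4 pairs; 95% interval -0.58 to -0.42; edgeR adjusted p = 1.6e-05). By p-value Atp1b2 ranked 34 and Atp1b1 649 among the 18102 genes. Atp1b2 lies on chromosome 11, 69599736 to 69605942 (mm10, minus strand, protein-coding), and no other gene of the table overlaps it.

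Atp1b3, on chromosome 9 (96332655 to 96364442, mm10, minus strand), had the smallest fitted change of the 5 tested genes. Its control levels were 89.3, 84.8, 72.1 and 64.4 CPM in the order of replicates above, against 88.0, 84.7, 69.7 and 66.3 CPM in cKO libraries. It was lower in 3 pairs and higher in 1, by at most 0.05 on the log2 scale. The fitted change was -0.01 ± 0.03 (SE; edgeR adjusted p = 0.889), and its 95% interval of -0.08 to 0.06 holds neither the rise of Atp1b1 nor the fall of Atp1b2.

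**Figure D1:**
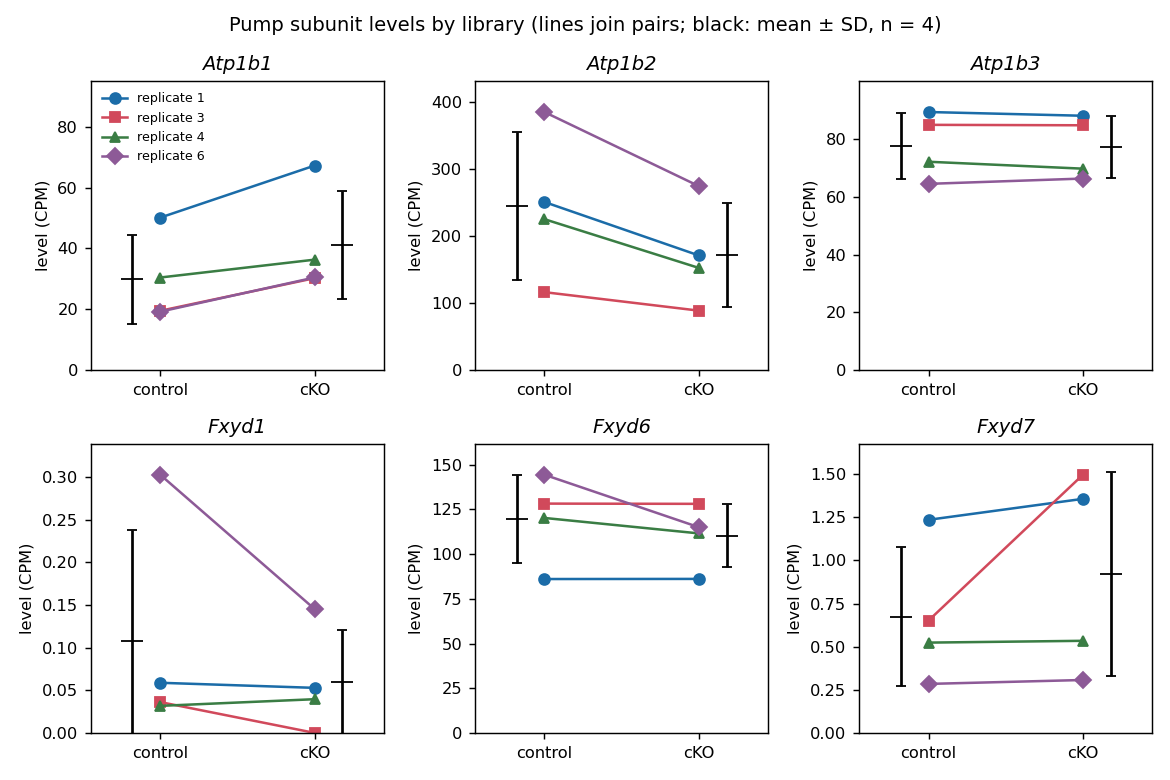
Level in CPM (vertical axis, linear from 0, scaled per panel) of the 6 pump genes in control and cKO libraries. Coloured lines join the 2 libraries of a replicate and black bars give the mean ± SD (n = 4). All 4 lines climb for Atp1b1, from 19.2 to 50.1 CPM up to 30.2 to 67.2 CPM, and all 4 drop for Atp1b2.

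Levels of both called genes differed more between batches than within pairs. Control levels of Atp1b2 differed 3.31-fold and those of Atp1b1 2.61-fold between the highest and lowest batch. For Atp1b2, the SD of log2 level over control libraries was 0.71, against 0.079 for the differences within pairs. The corresponding values were 0.65 and 0.19 for Atp1b1, 0.22 and 0.037 for Atp1b3, and 0.32 and 0.15 for Fxyd6. Without the replicate block, the edgeR fold changes were of like size (0.46 ± 0.38 for Atp1b1 and -0.51 ± 0.41 for Atp1b2), but both had an adjusted p of 0.9999, with unadjusted p of 0.263 and 0.254, and 0.0166% of all genes were called. The calls on both genes therefore rest on the pairing of libraries by batch. Leaving out any single pair kept both calls, with log2 fold changes from 0.43 to 0.58 for Atp1b1 and from -0.53 to -0.47 for Atp1b2.

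The opposite moves changed the mix of beta transcripts. To compare genes, CPM was divided by the length of all annotated exons (GENCODE M21) to give CPM per kb, 3081 bases for Atp1b1, 4085 for Atp1b2 and 2389 for Atp1b3. On that scale the share of Atp1b1 in the summed beta level was 14.1%, 9.01%, 10.4% and 4.90% in the control libraries of replicates 1, 3, 4 and 6. In the cKO libraries it was 21.7%, 14.7%, 15.1% and 9.43%, higher in each pair. The share of Atp1b2 was 53.4%, 40.5%, 57.9% and 73.9% in control and 41.7%, 32.4%, 47.7% and 64.1% in cKO libraries, lower in each pair by 8.06 to 11.7 percentage points. That of Atp1b3 was 34.0% ± 12.2 in control and 38.3% ± 10.9 in cKO libraries (SD, n = 4), and it too was higher in all 4 pairs, as a share can be where another member falls. The summed beta level was 102 ± 24.9 CPM per kb in control and 87.7 ± 18.02 in cKO libraries (SD, n = 4), lower in 4 of 4 pairs.

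**Figure D2:**
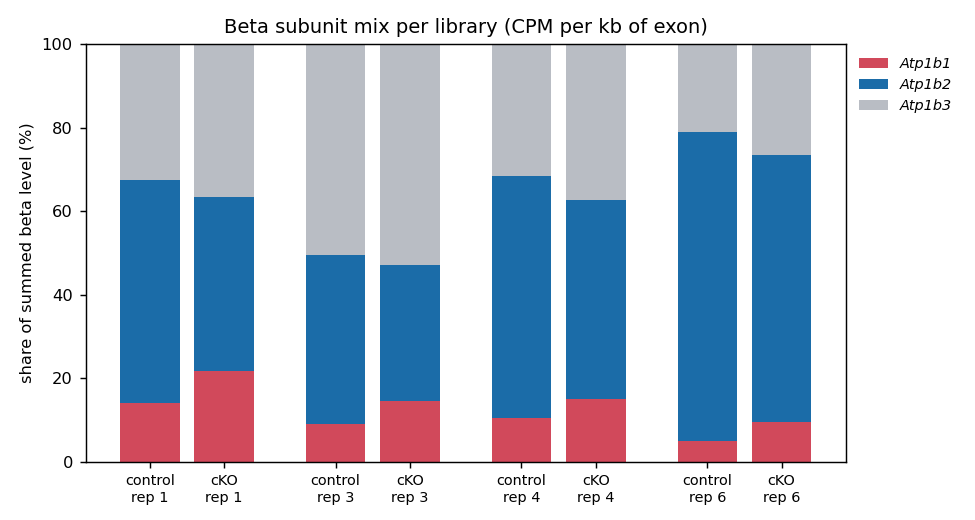
Share of the summed beta subunit level (vertical axis, %, from CPM per kb of exon) taken by Atp1b1, Atp1b2 and Atp1b3 in each library, with the control and cKO library of a replicate side by side. Within each pair the Atp1b1 part is larger and the Atp1b2 part smaller in cKO, while replicate 3 stands apart in both groups by its Atp1b3 share of 50.5% and 52.9%.

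The ratio of Atp1b2 to Atp1b1 does not depend on library scaling, and its change does not depend on gene length. It was 3.77, 4.50, 5.58 and 15.1 in control libraries and 1.92, 2.21, 3.17 and 6.80 in their cKO partners. In each pair the ratio was lower in cKO, at 45.03% to 56.8% of control. The mean log2 change was -0.99 ± 0.14 (SD, 4 pairs), or 50.3% of control. An exact paired permutation test over the 4 pairs gave p = 0.125 (2-sided), the smallest value this design allows, for this ratio as for each share. Control libraries themselves spanned a wider range of ratios than the change within a pair.

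**Figure D3:**
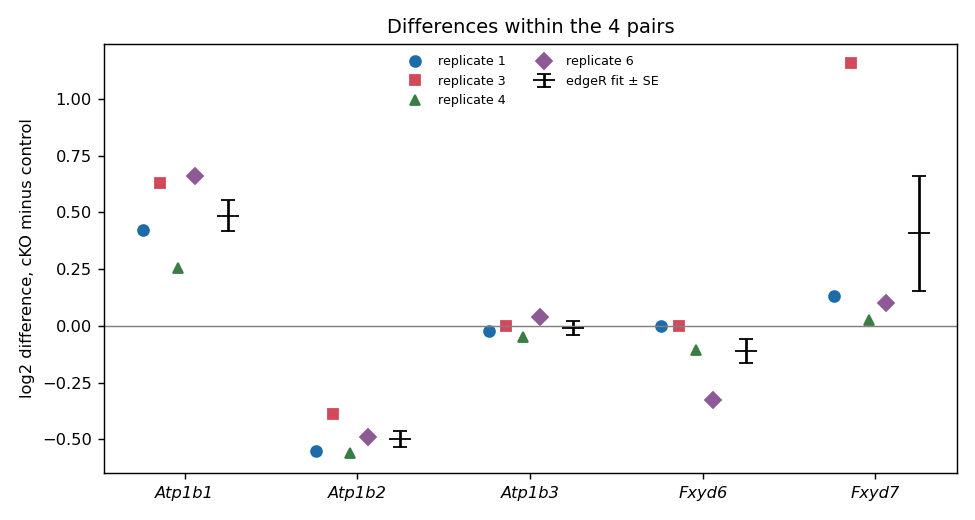
Log2 difference of cKO from control within each of the 4 pairs (coloured points) and the edgeR fit with its SE (black) for the 5 tested members. All points lie above 0 for Atp1b1 (0.25 to 0.66) and below 0 for Atp1b2 (-0.56 to -0.39), those of Atp1b3 lie within 0.05 of 0, and for Fxyd7 only replicate 3 stands well above 0.

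None of the 3 FXYD members passed the test. Fxyd6 (chromosome 9, 45370185 to 45396159, mm10, plus strand), the most abundant of them, was at 86.1, 128, 120 and 144 CPM in the control libraries of replicates 1, 3, 4 and 6. In cKO libraries it was at 86.1, 128, 112 and 115 CPM. Replicates 1 and 3 differed by under 0.01 on the log2 scale, while replicates 4 and 6 were lower in cKO, by differences of -0.11 and -0.33. The fitted log2 fold change was -0.11 ± 0.05 (SE; 95% interval -0.24 to 0.01; edgeR adjusted p = 0.196). That interval reaches down to 0.85 times control, short of the 0.707 times of Atp1b2.

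Fxyd7 was low throughout. Its counts were 63, 36, 33 and 15 in control libraries, or 1.24, 0.651, 0.523 and 0.284 CPM, and 77, 67, 27 and 19 in cKO libraries, or 1.36, 1.496, 0.534 and 0.307 CPM. The cKO library was higher in each pair, but by 1.16 on the log2 scale in replicate 3 and by at most 0.13 in the other pairs. The fitted change was 0.41 ± 0.25 (SE; 95% interval -0.15 to 0.97; edgeR adjusted p = 0.292), and it was 0.10 without replicate 3. Its precision does not allow a change of the size seen for Atp1b1 to be told from none.

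Fxyd1 was close to the limit of detection. Its counts were 3, 2, 2 and 16 in control and 3, 0, 2 and 9 in cKO libraries for replicates 1, 3, 4 and 6, so 37 of the reads in all 8 libraries were assigned to it. The floor of 3 counts corresponds to 0.0476 to 0.0670 CPM, and only the libraries of replicate 6, at 0.303 and 0.145 CPM, lay above it. No fold is given here, because most values lie at or under that floor. Fxyd1 and Fxyd7 are neighbours on chromosome 7 (31051678 to 31057199 and 31042513 to 31051467, mm10, both on the minus strand), 211 bases apart. Their batches did not rank alike, since Fxyd7 was lowest in replicate 6.

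Per kb of exon, the order of the members in control libraries was Atp1b2 (59.8 ± 27.0), Atp1b3 (32.5 ± 4.79), Fxyd6 (29.2 ± 5.99), Atp1b1 (9.68 ± 4.71), Fxyd7 (0.972 ± 0.583) and Fxyd1 (0.0491 ± 0.0599), each in CPM per kb (SD, n = 4). The spreads of Atp1b2, Atp1b3 and Fxyd6 overlap, so their order is not settled. It also depends on the length used, since with the longest coding transcript Fxyd6 was at 66.9 ± 13.8 and Atp1b3 at 38.9 ± 5.74 CPM per kb. Atp1b1 lay below these 3 genes and above Fxyd7 by either length.

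Genes whose level followed the called members most closely over the 8 libraries were found by the root mean square (RMS) difference of log2 CPM, each gene centred on its own mean, among 11737 candidates of at least 2 CPM. Nearest to Atp1b2 were Slc9a3r1 (RMS difference 0.11), a scaffold protein of membrane transporters, Tst (0.14), a mitochondrial sulfurtransferase, and Ednrb (0.16), the endothelin B receptor, against a median of 0.68 over candidates. All 3 fell, Slc9a3r1 by a log2 fold change of -0.54 ± 0.04 (edgeR adjusted p = 1.3e-05). Nearest to Atp1b1 were the ephrin gene Efna3 (0.19), the caveolin gene Cav2 (0.19) and the sulfiredoxin gene Srxn1 (0.21), against a median of 0.63. Efna3 and Srxn1 rose, Efna3 not without replicate 1 (edgeR adjusted p = 0.0807), while Cav2 was at a log2 fold change of 0.31 ± 0.11 (edgeR adjusted p = 0.0611). Most of each profile is the difference between batches, so a near profile describes these 8 libraries and no shared control. Libraries of both groups entered the RMS difference, so the direction of a neighbour's change is partly set by its selection and is no separate result.

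Other genes of the pump and of ion transport were taken from lists made by function. Of 8 tested genes among further pump subunits, FXYD proteins and the NKAIN proteins that bind the pump's beta subunit, 2 rose, 1 fell and 5 did neither (median log2 fold change 0.08, against -0.01 for all genes). The number that rose was 1 without replicate 1 and 1 without replicate 3. Fxyd2, the gamma subunit gene best known from kidney, lies 3510 bases beyond Fxyd6 on the same strand. It was at 0.510, 0.326, 0.254 and 0.435 CPM in control and 1.02, 0.648, 0.929 and 0.872 CPM in cKO libraries, so the groups did not overlap. These levels rest on few reads, with counts of 26, 18, 16 and 23 in control and 58, 29, 47 and 54 in cKO libraries. Fxyd2 rose by 1.20 ± 0.24 (log2, SE; edgeR adjusted p = 0.00695) while its neighbour Fxyd6, a far more abundant transcript, did not pass. Nkain1 fell by 0.24 ± 0.04 on the log2 scale (edgeR adjusted p = 0.00406), from 30.5 ± 8.38 to 25.8 ± 6.56 CPM (SD, n = 4). Fxyd4 stayed at or below 0.112 CPM in every library.

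Among 11 tested genes of other P-type cation pumps, 2 rose, 3 fell and 6 did neither (median -0.03). The plasma membrane calcium pump gene Atp2b2 rose by 0.57 ± 0.07 (log2, SE), from 11.2 ± 3.08 to 16.4 ± 3.14 CPM, and Atp13a4, a P5-type ATPase gene, rose by 1.16 ± 0.16, from 1.02 ± 0.678 to 2.23 ± 1.39 CPM. Atp2b4, another plasma membrane calcium pump, fell (-0.41 ± 0.09), as did Atp2a2 (-0.10 ± 0.03), the calcium pump of the endoplasmic reticulum, and Atp13a1 (-0.14 ± 0.04). The 3 falls numbered 1 without replicate 3, 0 without replicate 4 and 1 without replicate 6. The call on Atp2b4 was lost without a filter and without replicate 4 or replicate 6.

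Of 33 tested genes for exchangers and transporters that run on the sodium gradient, 3 rose, 9 fell and 21 did neither (median -0.08). Slc6a11, a GABA transporter, fell by 0.71 ± 0.04 (log2, SE; edgeR adjusted p = 4.7e-06). Slc1a4, a neutral amino acid transporter, fell as well (-0.33 ± 0.04), and so did the glutamate transporter gene Slc1a3 (-0.28 ± 0.03) and the mitochondrial sodium-calcium exchanger gene Slc8b1 (-1.08 ± 0.18, from 2.14 CPM). Slc4a10, a sodium bicarbonate transporter, rose by 1.31 ± 0.21 from a low 0.625 CPM. The falls numbered 5 rather than 9 without replicate 3. Among 9 tested pump regulators 0 rose and 2 fell, namely the kinase gene Stk39 (-0.34 ± 0.03), which acts on ion cotransporters, and Agrn (-0.22 ± 0.04), whose product agrin can bind the pump. By contrast, no gene of these 4 lists passed edgeR's test without the replicate block, where 893 of all genes had an unadjusted p under 0.05 and 3 passed after adjustment.

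**Figure D4:**
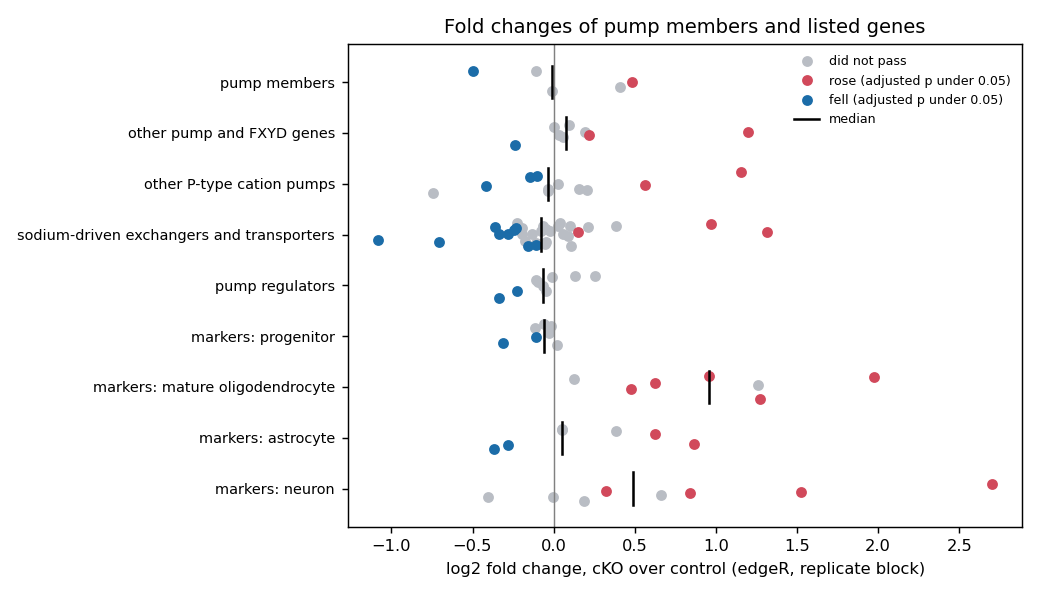
Log2 fold change of cKO over control (horizontal axis, edgeR with the replicate block) for the 5 tested pump members, the functional lists and cell type markers. Each point is a gene, red where it rose and blue where it fell at an adjusted p under 0.05, and black bars are medians. Mature oligodendrocyte markers have the highest median, at 0.96, against 0.49 for neuron markers. The single point furthest right is a neuron marker, and the pump members straddle 0.

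Markers of cell types were read beside these results. Progenitor markers were abundant, with a summed level of 8398 to 12792 CPM in control and 7690 to 11436 CPM in cKO libraries. That range depends on Gpr17, at 102, 488, 5377 and 3905 CPM in the control libraries of replicates 1, 3, 4 and 6. Of 7 progenitor markers tested 0 rose and 2 fell, Pdgfra by 0.31 ± 0.03 and Ptprz1 by 0.11 ± 0.03 on the log2 scale. Of 7 mature oligodendrocyte markers 5 rose (Mbp, Mog and Mobp not in every fit that left out a pair), and their summed level was higher in cKO in 4 of 4 pairs (237 to 1614 against 291 to 2591 CPM), in the same direction as Atp1b1. The highest sums were those of replicate 4, and Atp1b1 was highest in replicate 1. Of 7 tested astrocyte markers 2 rose (Gfap, Aqp4) and 2 fell (Slc1a3, Gja1), and their summed level ran from 885 to 2600 CPM in control and from 879 to 2442 CPM in cKO libraries, lowest in replicate 3 and highest in replicate 6, as that of Atp1b2. In the pairs of replicates 1, 3, 4 and 6 that sum was 1967, 885, 2047 and 2600 CPM in control libraries. After deletion it was 1794, 879, 1926 and 2442 CPM, lower in 4 of 4 pairs, the direction of Atp1b2. Its largest part was Slc1a3, at 1189, 554, 1363 and 1443 CPM in control and 970, 432, 1146 and 1227 CPM in cKO libraries. Slc1a2, Aqp4 and Gfap were higher in cKO in 4 of 4 pairs, while Slc1a3 and Gja1 were lower in 4 of 4. Aldh1l1 and Aldoc differed in direction between pairs. The median log2 fold change of the list was 0.05, so the sum does not stand for its genes. Of 8 tested neuron markers 4 rose, while Rbfox3 was lower in 4 of 4 pairs without passing (edgeR adjusted p = 0.115). The summed level of the neuron list was 45.4 to 87.0 CPM in control and 73.9 to 103 CPM in cKO libraries. It was higher in cKO in 4 of 4 pairs, as was that of mature oligodendrocyte markers, again the direction of Atp1b1. Slc17a7 and Gjb6 stayed under 0.5 CPM throughout, as did the microglial gene Csf1r, the vascular genes Pecam1 and Pdgfrb and the fibroblast genes Lum and Col3a1. The summed level of the microglial list reached at most 0.902 CPM in control and 1.44 CPM in cKO cells, that of the vascular list at most 5.60 and 3.76 CPM, and that of the fibroblast list at most 1.06 and 1.11 CPM. In each of these 3 lists 1 gene rose (P2ry12, Rgs5 and Col1a2). The part of these markers in the changes of Atp1b1 and Atp1b2 was not tested.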

How the data were processed

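Polyadenylated RNA of 8 libraries was sequenced, and the deposited table gives estimated counts (expected counts) per gene that are not normalized, of which 52% are not whole. The submitters' processing notes name mm10 as build and, as tools, Partek, cutadapt, STAR and DESeq2. No source used here gives versions, annotation or strand setting. Reads shared by related genes may have been divided between them. Per the labels' protocols, RNA had an integrity number of at least 8.

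Counts were rounded and genes kept by edgeR's filterByExpr (minimum count 10), which removed 6053 of 24155 genes. TMM factors, glmQLFit (robust) and glmQLFTest (edgeR 4.0.16, R 4.3.3) tested group with the replicate number as a block, 2-sided, with p-values adjusted after Benjamini-Hochberg across the 18102 genes kept. SEs came from the fold change and F statistic, and a prior count of 2 went into log2 CPM. The fit was tested on simulated data. The labels' batch names pair the libraries. Deviations from group means correlated at 0.79, 0.79, 0.76 and 0.75 for replicates 1, 3, 4 and 6, against at most 0.39 otherwise. Libraries of a group were no duplicates (chi-square per degree of freedom 54.2 to 251 over 12 pairs of libraries). It was 54.2 to 69.4 between replicates 1 and 3 and between 4 and 6, against 165 to 251 for all other pairs. Replicates 1 and 3 were thus more alike, as were 4 and 6, in both groups. That batches came from separate animals is not stated, so the spread between these pairs may be technical. The p-values and SEs of the fit rest on that spread and on a dispersion that edgeR partly shares across genes.

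The members and lists were chosen with earlier results of these data known. Genes named were the 6 members, the targeted genes, up to 5 genes per list past the threshold with the smallest p, the 3 nearest profiles to each called member, and markers past the threshold or near 0. A few other markers and Nme7 were named to describe a list or an overlap. Some listed genes are not reported here. Exon lengths and coding stretches came from GENCODE M21, and promoters from RefSeq, which matched 4 of the 6 members (not Atp1b2 or Fxyd7). Alternatives were the fit without the block, RLE and upper-quartile factors, 2 other filters, DESeq2 1.42.0, limma-voom (limma 3.58.1) and leaving out each pair. The other length measure for levels and ratio was added after seeing the data.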

Additional observations from a re-analysis of the deposited data

Results flagged for a closer look

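Among 54 sets of 4 values, 4 had a highest value whose gap to the next, over the whole range, passed Dixon's 95% limit for sets of 4. Chance alone marks about 1 in 20 such sets. Atp1b1 stood at 67.2 CPM in the cKO library of replicate 1, against 36.3 CPM in the next library. Fxyd1 was at 0.303 CPM in the control library of replicate 6, from 16 counts, against 0.0588 CPM in the next. The ratio of Atp1b2 to Atp1b1 was 15.1 in the control library of replicate 6, against 5.58 in the next. For Fxyd7, the log2 difference within the pair of replicate 3 was 1.16, against 0.13 in the next pair.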

How the results depend on the processing

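For Atp1b1 and Atp1b2, direction and call held under all alternatives except the fit without the replicate block, where the log2 fold changes were 0.46 and -0.51 and neither passed (adjusted p = 0.9999 for both in edgeR). Over the other alternatives the highest adjusted p was 0.0158 for Atp1b1 and 0.000347 for Atp1b2. Fxyd6 and Fxyd7 kept their sign and did not pass in any. Atp1b3, near 0, changed sign with upper-quartile factors (0.0057) and without replicate 4 (0.0166), and ranged from -0.0244 to 0.0166 with a pair left out, and did not pass under any alternative. Without a filter Fxyd1 could be fitted, at -0.73 ± 0.76 (SE; edgeR adjusted p = 0.62), but most of its values lie at or under the floor of 3 counts. The log2 change of the Atp1b2 to Atp1b1 ratio ranged from -1.05 to -0.94 with a pair left out.

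Without the replicate block, 1 gene was higher and 2 were lower of all tested, against 1817 and 1889, and 0 members and 0 listed genes passed in either direction. Leaving out each pair in turn gave between 1127 and 1702 higher and between 910 and 1730 lower genes. For further pump and FXYD genes the number higher was 1 with the filter of 1 CPM in 4 libraries and 1 to 2 with a pair left out. For the other P-type ATPases the number lower was 0 to 2 with a pair left out. For sodium-driven transporters 5 were higher with upper-quartile factors, and 5 to 8 were lower with a pair left out. For pump regulators 1 was higher with DESeq2 and 0 to 1 with a pair left out. Atp2b4, Atp2a2 and Atp13a1 each lost their call under at least 3 alternatives besides the fit without the block. Mbp, Mog, Mobp, Aqp4, Nefl, P2ry12, Rgs5, Ptprz1 and Efna3 lost theirs under at least 1. The median of all genes was -0.01 with RLE and 0.01 with upper-quartile factors. Among the members, depth limits Fxyd1 and Fxyd7 only. Outside them, Fxyd2, Slc4a10 and several markers had low counts as well.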
